A study of Rattus norvegicus with 9 samples.

Results

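The genes described here are the 3 D-type cyclins and 6 inhibitors of cyclin-dependent kinases (CDKs), chosen by symbol, and each symbol matched 1 gene of the 32883 in the deposited tables, so that the set holds 9 genes. RNA was sequenced from 9 libraries of cultured fibroblasts (Fb) of wild-type adult male Lewis rats, 3 each from the epineurium (Fb-Epn), the outer sheath of the sciatic nerve, from the nerve parenchyma inside it (Fb-Par) and from abdominal skin without its fat (Fb-Skn). No treatment was given, and all cells were freed by collagenase and trypsin, grown in medium with fetal bovine serum and passaged before RNA was taken. Both nerve tissues came from the same pair of rats and the skin from another rat, so the 3 libraries of a type were not 3 animals and p-values measured only the spread between these libraries. Rat and body site cannot be told apart in any comparison with Fb-Skn.

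D cyclins bind and activate CDK4 and CDK6, which phosphorylate the retinoblastoma proteins and so release the E2F factors that start DNA synthesis. The Ink4 inhibitors (Cdkn2a, Cdkn2b and Cdkn2c) bind CDK4 and CDK6 themselves, whereas the Cip/Kip inhibitors (Cdkn1a, Cdkn1b and Cdkn1c) bind complexes of cyclins and CDKs, mainly those of CDK2. In fibroblasts the inhibitors are known for the arrest that follows DNA damage, contact between cells or long culture.

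Total counts ranged from 10084584 to 12310506 per library. After the filter on low counts 13273 genes were tested, and all 9 genes passed it. Within a type, libraries varied, beyond counting noise, by 8.25% (edgeR's biological coefficient of variation) over all genes and by 3.51% to 18.7% for the 9 genes, with Cdkn2a and Cdkn2c the most variable. RNA of markers of other cell types was found as well, and bulk RNA does not show which cells made it. By immunolabelling, the authors reported every cell positive for collagen and Thy1, with negligible S100b and Cd31. The 10 fibroblast markers summed to between 31696 and 41838 TPM (reads divided by gene length and scaled to 1 fixed total per library) in every library, but the 12 Schwann cell markers summed to 215 to 229 TPM for Fb-Epn, 282 to 292 TPM for Fb-Par and 14.6 to 18.3 TPM for Fb-Skn, where Sox10, Erbb3, Cdh19 and Gfap were at 0. The 10 macrophage markers summed to 357 to 397 TPM for Fb-Epn, 88.5 to 90.8 TPM for Fb-Par and 27.2 to 28.1 TPM for Fb-Skn, with none of them at 0 in any type. The sum of the 11 epithelial markers stayed at or below 7.31 TPM, and that of the 9 endothelial markers between 24.3 and 38.5 TPM. Of these endothelial markers Cdh5, Cldn5, Emcn and Esam were at 0 in Fb-Skn and Cldn5 in Fb-Par, and of the 5 that passed the filter 4 were higher and 1 lower in Fb-Epn than Fb-Skn (median log2 fold change 3.04).

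Below, a gene was called where the edgeR quasi-likelihood test gave an adjusted p under 0.01, and a DE gene was a called gene with a log2 fold change beyond 2 in either direction, which is a fold of 4. Levels are given as TPM, which is corrected for length, and fold changes come from counts scaled by the TMM method. In these bulk samples, fewer cells of a kind and less RNA per cell cannot be told apart.

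All 9 genes were called in Fb-Epn against Fb-Skn, 3 higher and 6 lower, where 43.9% of all tested genes were called, 23% higher and 20.9% lower. All 9 were also called in Fb-Epn against Fb-Par, 4 higher and 5 lower, against 38.8% of all tested genes, 20.2% higher and 18.6% lower. These comparisons share the Fb-Epn libraries. In Fb-Par against Fb-Skn, 5 of the 9 genes were called, 2 higher and 3 lower, where 45.6% of all tested genes were called, 23.2% higher and 22.4% lower. Without 1 library at a time that last count was 4 or 5. The DE genes were Cdkn2a and Cdkn2b in Fb-Epn against Fb-Skn (background 8.44%), Cdkn1c, Cdkn2a and Cdkn2b in Fb-Epn against Fb-Par (background 6.48%) and none of the 9 in Fb-Par against Fb-Skn (background 8.54%). TPM values did not overlap between Fb-Epn and Fb-Skn for 9 of 9 genes (61.4% of all tested genes), between Fb-Epn and Fb-Par for 9 of 9 (57.3%) and between Fb-Par and Fb-Skn for 8 of 9 (61.7%). The last of these counts depended on TPM scaling. On the TMM-scaled values, Cdkn1a and Cdkn1b did overlap between Fb-Par and Fb-Skn. Ccnd3 was then lower, not higher, in every Fb-Par library than in any Fb-Skn library. Cdkn1c, Cdkn2a, Cdkn2b, Ccnd1 and Ccnd2 were called in all 3 comparisons, as were 16.5% of all tested genes.

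**Figure D1:**
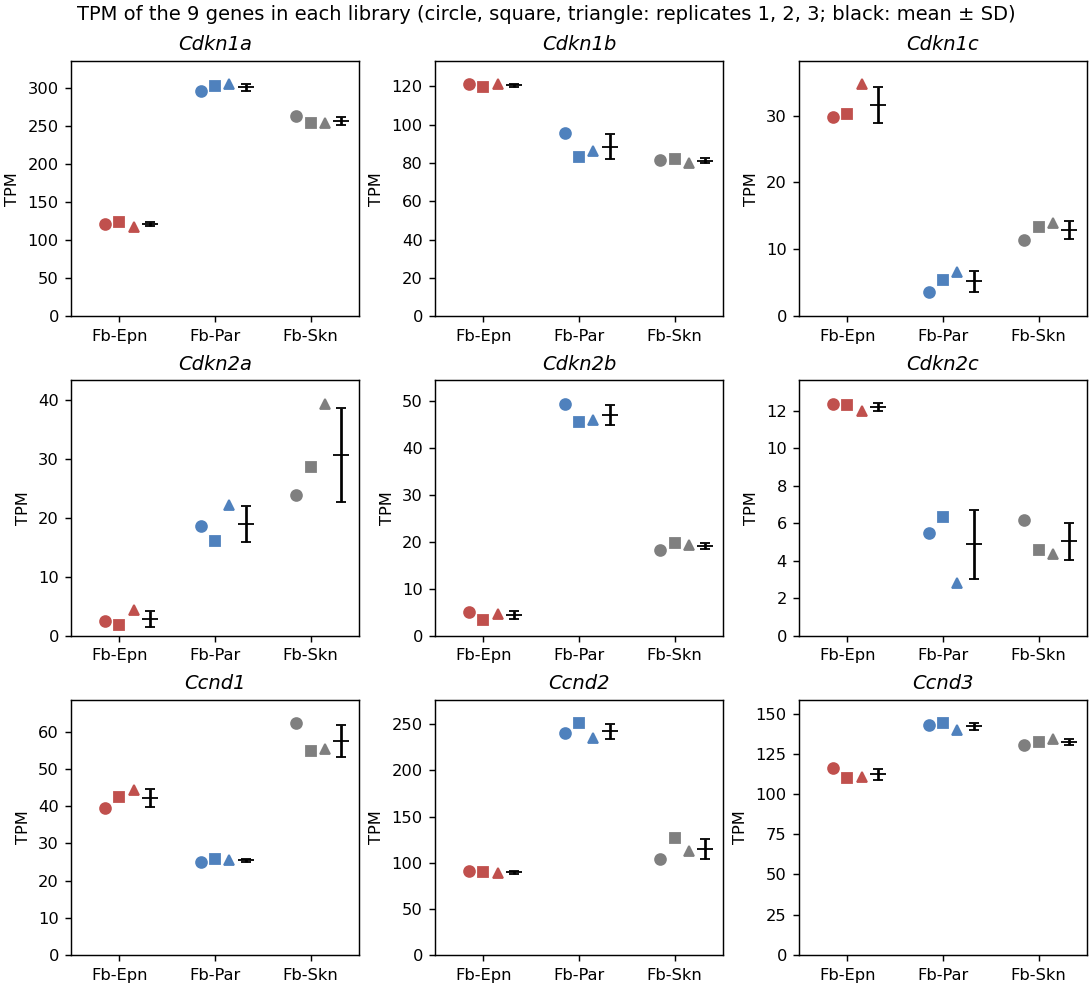
TPM (vertical axis, from 0) of each of the 9 genes in the 3 libraries of each fibroblast type, with the symbol giving the replicate number and the black bar the mean ± SD (n = 3). Cdkn1b, Cdkn1c and Cdkn2c were highest in Fb-Epn, Cdkn1a, Cdkn2b, Ccnd2 and Ccnd3 in Fb-Par, and Cdkn2a and Ccnd1 in Fb-Skn.

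Of the D cyclins, Ccnd2 was highest in Fb-Par, where Ccnd1 was lowest, both were lower in Fb-Epn than Fb-Skn, and Ccnd3 varied least. Ccnd2 (ENSRNOG00000057710, rn6 chr4:159674885-159697207, minus strand) encodes cyclin D2. Its TPM was 91.2, 89.5 and 88.4 in the Fb-Epn libraries, 240.9, 251.4 and 234.8 in Fb-Par and 104.5, 126.5 and 113.2 in Fb-Skn. Fb-Par stood far above both other types, and even the lowest Fb-Skn library was above every Fb-Epn library. Ccnd2 was 2.68-fold lower in Fb-Epn than Fb-Par (log2 fold change -1.42 ± 0.058 SE, adjusted p = 3.5e-11) and 1.41-fold lower than Fb-Skn (-0.49 ± 0.060, adjusted p = 6.5e-06). It was 1.91-fold higher in Fb-Par than Fb-Skn (0.93 ± 0.057, adjusted p = 3.1e-09). The Schwann cell marker sum was highest in Fb-Par too, but it was lower in Fb-Skn than Fb-Epn, the reverse of Ccnd2, and its part in these values was not tested.

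Ccnd1 (ENSRNOG00000020918, rn6 chr1:218090750-218100325, minus strand) encodes cyclin D1, the D cyclin best known for its induction by growth factors. Its TPM was 39.5, 42.4 and 44.3 for Fb-Epn, 25.0, 25.8 and 25.4 for Fb-Par and 62.3, 54.8 and 55.2 for Fb-Skn. The 3 types did not overlap, with Fb-Par lowest and Fb-Skn highest. Ccnd1 was 2.51-fold lower in Fb-Par than Fb-Skn (log2 fold change -1.33 ± 0.068, adjusted p = 4.2e-10), 1.51-fold lower in Fb-Epn than Fb-Skn (-0.59 ± 0.065, adjusted p = 2.3e-06) and 1.67-fold higher in Fb-Epn than Fb-Par (0.74 ± 0.069, adjusted p = 4.4e-07).

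Ccnd3 (ENSRNOG00000050258, rn6 chr9:15404822-15410943, minus strand) encodes cyclin D3. Its TPM was 115.9, 109.9 and 110.8 for Fb-Epn, 142.7, 144.1 and 139.6 for Fb-Par and 130.5, 132.2 and 134.1 for Fb-Skn. Each Fb-Epn library was below every library of the other types. Ccnd3 was 1.30-fold lower in Fb-Epn than Fb-Skn (log2 fold change -0.38 ± 0.041, adjusted p = 1.9e-06) and 1.26-fold lower than Fb-Par (-0.33 ± 0.040, adjusted p = 8e-06). Between Fb-Par and Fb-Skn the log2 fold change was -0.05 (95% interval -0.13 to 0.04, adjusted p = 0.35), and its sign turned with the scaling, since TPM was higher in every Fb-Par library while the TMM-scaled value was slightly lower.

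Among the Cip/Kip inhibitors, Cdkn1a was lower in Fb-Epn than in both other types, and Cdkn1b and Cdkn1c were higher. Cdkn1a (ENSRNOG00000000521, rn6 chr20:6351458-6358864, plus strand) encodes p21, known to hold cells in arrest after DNA damage. Its TPM was 121.6, 123.3 and 117.8 for Fb-Epn, 295.7, 302.1 and 304.8 for Fb-Par and 262.8, 253.3 and 254.4 for Fb-Skn. The 3 types did not overlap, but Fb-Par and Fb-Skn lay close together. Cdkn1a was 2.34-fold lower in Fb-Epn than Fb-Skn (log2 fold change -1.23 ± 0.040, adjusted p = 2.3e-12) and 2.47-fold lower than Fb-Par (-1.30 ± 0.039, adjusted p = 1.2e-12). In Fb-Par against Fb-Skn its log2 fold change of 0.08 (95% interval -0.0041 to 0.16) did not pass (adjusted p = 0.097), whereas without TMM scaling it was 0.17 and passed (adjusted p = 0.0013).

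Cdkn1b (ENSRNOG00000007249, rn6 chr4:168689163-168693964, plus strand) encodes p27, which is known to accumulate in resting cells. Its TPM was 121.0, 119.7 and 121.1 for Fb-Epn, 95.9, 83.2 and 86.3 for Fb-Par and 81.8, 82.0 and 79.9 for Fb-Skn. All Fb-Epn libraries were above all others, and the lowest Fb-Par library was just above the highest of Fb-Skn. Cdkn1b was 1.35-fold higher in Fb-Epn than Fb-Skn (log2 fold change 0.43 ± 0.055, adjusted p = 1.1e-05) and 1.37-fold higher than Fb-Par (0.46 ± 0.054, adjusted p = 6.3e-06). For Fb-Par over Fb-Skn the log2 value was -0.03 (95% interval -0.15 to 0.09, adjusted p = 0.71). Its sign turned without TMM scaling (0.069) and without Fb-Par replicate 2 (0.017).

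Cdkn1c (ENSRNOG00000059500, rn6 chr1:216661080-216663721, minus strand) encodes p57, the product of an imprinted gene. Its TPM was 29.7, 30.3 and 34.7 for Fb-Epn, 3.57, 5.47 and 6.57 for Fb-Par and 11.4, 13.3 and 14.0 for Fb-Skn. The 3 types were well apart, in the order Fb-Epn, Fb-Skn, Fb-Par. Cdkn1c was 6.13-fold higher in Fb-Epn than Fb-Par (log2 fold change 2.62 ± 0.16, adjusted p = 5.6e-09), 2.23-fold higher than Fb-Skn (1.15 ± 0.15, adjusted p = 1.1e-05) and 2.76-fold lower in Fb-Par than Fb-Skn (-1.46 ± 0.17, adjusted p = 4.9e-06). The counts behind the Fb-Par values were 40, 53 and 67 reads. The macrophage marker sum was likewise highest in Fb-Epn, where Cdkn1b and Cdkn1c were highest, but it was lower in Fb-Skn than Fb-Par, unlike Cdkn1c, and its part was not tested. The 7 perineurial markers had the order of Cdkn1c, with sums of 213 to 219 TPM for Fb-Epn, 88.1 to 96.1 TPM for Fb-Par and 114 to 126 TPM for Fb-Skn, although Lypd2 was at 0 in all types, Krt19 in Fb-Epn and Cldn1 in Fb-Skn, and their part was not tested either.

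Cdkn1b, a Cip/Kip inhibitor called higher in Fb-Epn than in both other types, is shown with the 250 bases before its RefSeq start, written 5′ to 3′ on the strand of the gene. The RefSeq build is GRCr8, whereas the deposited tables use rn6, and no position was carried from one to the other. Capitals mark matches, on either strand, to the GC box GGGCGG and to CCAAT.
Cdkn1b (GRCr8 chr4:169491254-169491503, plus strand): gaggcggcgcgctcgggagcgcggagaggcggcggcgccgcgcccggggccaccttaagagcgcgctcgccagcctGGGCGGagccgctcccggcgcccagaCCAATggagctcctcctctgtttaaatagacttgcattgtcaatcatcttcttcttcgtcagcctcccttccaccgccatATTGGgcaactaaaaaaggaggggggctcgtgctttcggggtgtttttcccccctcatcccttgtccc
The Cdkn1b window held 1 GC box (30.5% of 33469 RefSeq promoters held at least 1 in the same window) and 2 CCAAT boxes (34.0%). A match describes these letters only and is not evidence of binding.

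**Figure D2:**
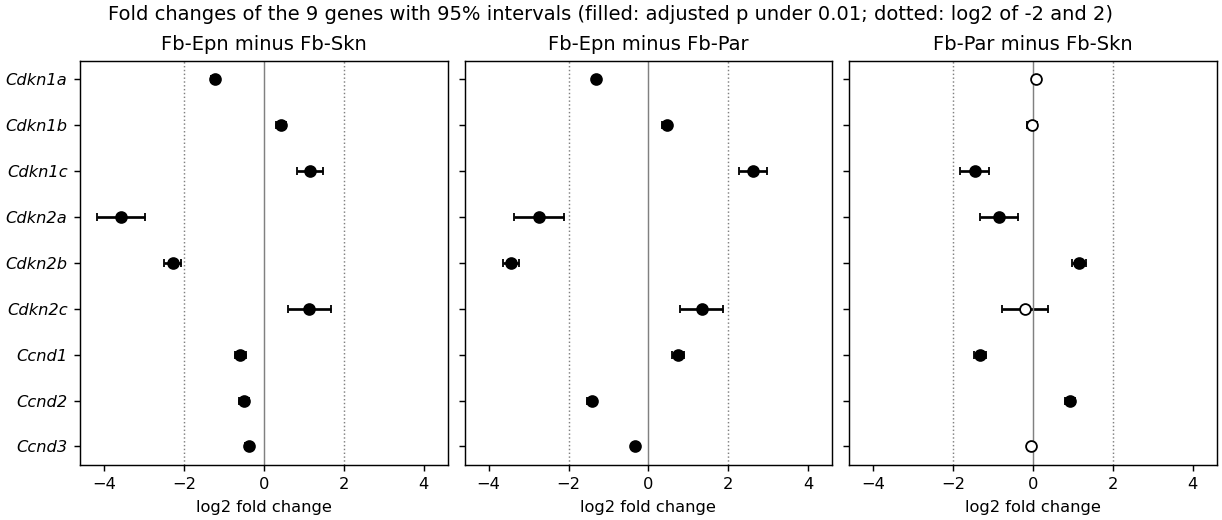
Log2 fold change (horizontal axis) with its 95% interval for the 9 genes in the 3 comparisons, filled where the edgeR adjusted p was under 0.01, with dotted lines at -2 and 2. All 9 points are filled in both comparisons of Fb-Epn, and Cdkn1a, Cdkn1b, Cdkn2c and Ccnd3 are open in Fb-Par minus Fb-Skn.

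The Ink4 inhibitors held the largest fold changes of the set in both comparisons of Fb-Epn, where Cdkn2a and Cdkn2b were lower and Cdkn2c was higher. Cdkn2b (ENSRNOG00000006735, rn6 chr5:107845951-107858104, minus strand) encodes p15, known as a TGF-beta response gene in epithelial cells. Its TPM was 5.08, 3.37 and 4.53 for Fb-Epn, 49.4, 45.5 and 46.0 for Fb-Par and 18.3, 19.7 and 19.2 for Fb-Skn. The types were clearly apart in the order Fb-Par, Fb-Skn, Fb-Epn. Cdkn2b was 10.8-fold lower in Fb-Epn than Fb-Par (log2 fold change -3.44 ± 0.096, adjusted p = 5.8e-13), 4.88-fold lower than Fb-Skn (-2.29 ± 0.10, adjusted p = 8.8e-11) and 2.22-fold higher in Fb-Par than Fb-Skn (1.15 ± 0.081, adjusted p = 1.6e-08).

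Cdkn2a (ENSRNOG00000059837, rn6 chr5:107823330-107841175, minus strand) lies next to Cdkn2b with 4775 bases between them. It gives p16 and, from another first exon, Arf, which acts through Mdm2, and the gene-level counts do not separate these products. Its TPM was 2.39, 1.73 and 4.30 for Fb-Epn, 18.5, 16.1 and 22.1 for Fb-Par and 23.9, 28.7 and 39.4 for Fb-Skn. The types did not overlap, but the highest Fb-Par and lowest Fb-Skn libraries were close and Fb-Skn replicate 3 stood above the rest. The Fb-Epn values rested on 11, 9 and 20 reads. Cdkn2a was 12.0-fold lower in Fb-Epn than Fb-Skn (log2 fold change -3.58 ± 0.28, adjusted p = 6e-08) and 6.70-fold lower than Fb-Par (-2.75 ± 0.29, adjusted p = 1.7e-06).

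In Fb-Par against Fb-Skn, Cdkn2a was 1.79-fold lower (log2 fold change -0.84 ± 0.22, adjusted p = 0.005), a call close to the threshold. The call was lost without Fb-Par replicate 1 (adjusted p = 0.02), Fb-Par replicate 2 (0.026), Fb-Skn replicate 2 (0.012) or Fb-Skn replicate 3 (0.046), and without TMM scaling (0.011). The direction did not turn when a library was left out (log2 fold change -0.98 to -0.63). The FPKM that the authors deposited were 1.68, 1.58 and 2.80 for Fb-Epn, 14.2, 14.0 and 14.6 for Fb-Par and 26.3, 22.6 and 27.2 for Fb-Skn, so that on this scale Fb-Par and Fb-Skn were farther apart and Fb-Skn replicate 3 did not stand out. FPKM divided by TPM was 0.650 to 1.10 for Cdkn2a and between 0.399 and 0.539 for the other 8 genes. The 10 mural cell markers summed to 3480 to 3712 TPM for Fb-Epn, 5924 to 6085 TPM for Fb-Par and 10626 to 11082 TPM for Fb-Skn, the same order as Cdkn2a, but single markers did not follow that sum. In Fb-Par against Fb-Skn 8 of the 10 were higher and 1 lower (median log2 fold change 1.39), with Kcnj8 and Rgs5 at 0 in Fb-Skn. In Fb-Epn 5 were higher and 5 lower than Fb-Skn, and 1 was higher and 7 lower than Fb-Par. The part of these markers was not tested.

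The neighbours Cdkn2a and Cdkn2b were thus both low in Fb-Epn but differed in order between Fb-Par and Fb-Skn. The ratio of Cdkn2b to Cdkn2a on the TPM scale was 2.12, 1.95 and 1.05 for Fb-Epn, 2.67, 2.82 and 2.08 for Fb-Par and 0.767, 0.685 and 0.488 for Fb-Skn. On this scale every Fb-Skn library was below 1 and every nerve library above it. From the deposited FPKM, a scale tried after the TPM ratios were seen, the ratio was 1.36, 0.925 and 0.756 for Fb-Epn, 1.41 to 1.58 for Fb-Par and 0.332 to 0.389 for Fb-Skn. Fb-Skn stayed below the nerve types, but Fb-Epn then lay on both sides of 1. The RefSeq promoters of this pair are shown because the genes are adjacent and the order of their levels differed, with capitals marking the GC box GGGCGG and the cyclic AMP response element TGACGTCA on either strand.
Cdkn2a (GRCr8 chr5:109107957-109108206, minus strand): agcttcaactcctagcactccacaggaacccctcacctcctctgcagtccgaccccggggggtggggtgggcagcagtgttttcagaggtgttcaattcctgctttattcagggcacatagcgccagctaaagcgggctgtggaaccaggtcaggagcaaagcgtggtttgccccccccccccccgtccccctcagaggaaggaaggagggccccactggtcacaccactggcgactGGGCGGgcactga
Cdkn2b (GRCr8 chr5:109134856-109135105, minus strand): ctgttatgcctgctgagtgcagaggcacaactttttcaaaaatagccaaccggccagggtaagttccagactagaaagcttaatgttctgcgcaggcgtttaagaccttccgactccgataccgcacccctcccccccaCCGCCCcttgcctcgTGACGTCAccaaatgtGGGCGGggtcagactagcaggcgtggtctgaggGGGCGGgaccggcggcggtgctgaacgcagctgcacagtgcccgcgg
The Cdkn2b window held 3 GC boxes and 1 cyclic AMP response element, which began 96 bases before the start and occurred in 1.59% of all promoters. The Cdkn2a window held 1 GC box, and its RefSeq start lay 6492 bases inside the 5′ end of the gene, so that it shows only 1 of the starts of this gene. No match to TATAAA (12.9% of all promoters) or to the E2F letters TTTGGCGC and TTTCGCGC (0.636%) was found in the windows of Cdkn1a, Cdkn1b, Cdkn2a or Cdkn2b.

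Cdkn2c (ENSRNOG00000008956, rn6 chr5:129347732-129352886, minus strand) encodes p18 and is a known E2F target. Its TPM was 12.4, 12.3 and 12.0 for Fb-Epn, 5.48, 6.33 and 2.80 for Fb-Par and 6.15, 4.55 and 4.37 for Fb-Skn. Fb-Epn was above all other libraries, and Fb-Par and Fb-Skn overlapped. Cdkn2c was 2.19-fold higher in Fb-Epn than Fb-Skn (log2 fold change 1.13 ± 0.25, adjusted p = 0.0015) and 2.52-fold higher than Fb-Par (1.33 ± 0.25, adjusted p = 0.00047). Between Fb-Par and Fb-Skn the log2 fold change was -0.20 (95% interval -0.78 to 0.38, adjusted p = 0.55), and without Fb-Par replicate 3, which had 20 reads, it was 0.077.

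On the TPM scale the 3 families were present at unlike levels, and their make-up differed between the types. The D cyclins summed to 244.0 ± 2.51 TPM for Fb-Epn, 409.9 ± 10.8 for Fb-Par and 304.4 ± 8.30 for Fb-Skn (mean ± SD, n = 3). The Cip/Kip genes summed to 273.1 ± 0.646, 394.6 ± 3.51 and 351.0 ± 4.36 TPM in the same order, and the Ink4 genes to 19.3 ± 1.75, 70.7 ± 2.77 and 54.8 ± 7.52 TPM. All 3 sums were lowest in Fb-Epn and highest in Fb-Par.

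The share of each gene in its family was compared over the 3 types with an exact permutation test over all arrangements of the libraries, 10 quantities being tested, for which the smallest possible p was 0.0036. Ccnd2 made up 36.8 ± 0.400% of D cyclin TPM for Fb-Epn, 59.1 ± 0.491% for Fb-Par and 37.6 ± 2.61% for Fb-Skn (exact adjusted p = 0.025). Ccnd1 made up 17.2 ± 1.12%, 6.20 ± 0.130% and 18.9 ± 1.82% (exact adjusted p = 0.015), and Ccnd3 46.0 ± 0.878%, 34.7 ± 0.418% and 43.5 ± 1.14% (exact adjusted p = 0.0060). Fb-Par thus had cyclin D2 as its most abundant D cyclin RNA, and the other types cyclin D3.

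Of the Cip/Kip TPM, Cdkn1a made up 44.3 ± 1.08% for Fb-Epn, 76.3 ± 1.28% for Fb-Par and 73.2 ± 0.596% for Fb-Skn (exact adjusted p = 0.0060). Cdkn1b made up 44.2 ± 0.326%, 22.4 ± 1.61% and 23.1 ± 0.332% (exact adjusted p = 0.020), and Cdkn1c 11.6 ± 0.976%, 1.32 ± 0.381% and 3.68 ± 0.420% (exact adjusted p = 0.0060). Cdkn1a and Cdkn1b were therefore about equal in Fb-Epn only, and Cdkn1a prevailed in the other types.

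A different Ink4 gene led in each type on the TPM scale. Counts without length correction put Cdkn2b first in every type. It had 108 to 144 reads in Fb-Epn against 87 to 100 for Cdkn2c, and 521 to 563 in Fb-Skn against 119 to 173 for Cdkn2a. Cdkn2c made up 63.5 ± 6.66% of Ink4 TPM for Fb-Epn, 6.91 ± 2.73% for Fb-Par and 9.42 ± 2.99% for Fb-Skn (exact adjusted p = 0.020). Cdkn2b made up 22.3 ± 3.14%, 66.4 ± 1.32% and 35.2 ± 4.05%, and Cdkn2a 14.2 ± 5.69%, 26.7 ± 3.94% and 55.4 ± 6.65% (exact adjusted p = 0.0060 for both). The log2 ratio of the D cyclin sum to the sum of all 6 inhibitors was -0.26 ± 0.015 for Fb-Epn, -0.18 ± 0.055 for Fb-Par and -0.41 ± 0.050 for Fb-Skn (exact adjusted p = 0.0060), and the order of Fb-Par and Fb-Skn turned where counts without length correction were used (difference 0.23 against -0.20).

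**Figure D3:**
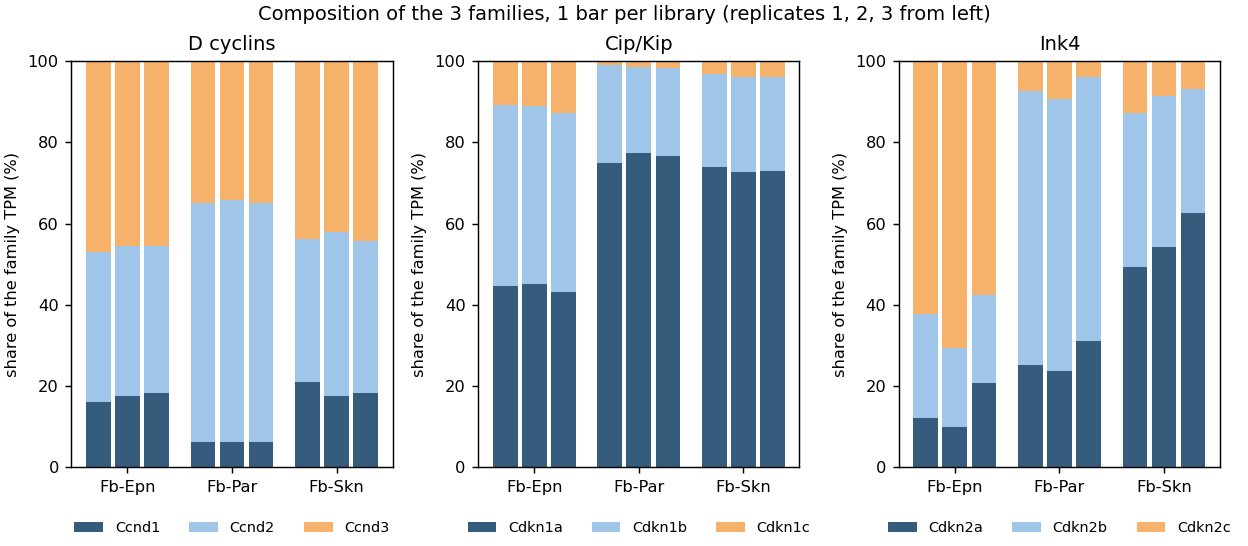
Share of each gene in the summed TPM of its family (vertical axis, percent), with 1 stacked bar for each of the 9 libraries. Cdkn2c fills 57.5% to 70.7% of the Ink4 bar for Fb-Epn, Cdkn2b 64.8% to 67.3% for Fb-Par and Cdkn2a 49.4% to 62.5% for Fb-Skn.

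Of the direct partners, Cdk4, the main kinase partner of D cyclins, stood at 271.9 ± 4.15 TPM for Fb-Epn, 265.6 ± 8.04 for Fb-Par and 282.3 ± 9.52 for Fb-Skn, with a TMM-scaled log2 value of -0.19 for Fb-Epn over Fb-Skn (adjusted p = 0.0019). Cdk6, its close relative, averaged 15.2, 37.7 and 25.6 TPM in the same types, the order of Ccnd2 and Cdkn2b, and was lower in Fb-Epn than Fb-Par (-1.30 ± 0.11, adjusted p = 1.9e-07). Of the pocket protein genes, Rbl1 was higher in Fb-Epn than Fb-Skn (1.57 ± 0.25, adjusted p = 9.5e-05), Rbl2 was lower in Fb-Epn than Fb-Par (-0.48 ± 0.071, adjusted p = 4.9e-05), and Rb1 was lower in Fb-Epn than Fb-Par (-0.44 ± 0.10, adjusted p = 0.0025) but stood at -0.11 against Fb-Skn and did not pass (adjusted p = 0.4). Of 17 tested CDKs, later cyclins and their regulators, 9 were higher and 3 lower in Fb-Epn than Fb-Skn, with a median log2 fold change of 0.50 against -0.0028 over all tested genes, 9 higher and 1 lower in Fb-Epn than Fb-Par, and 2 higher and 5 lower in Fb-Par than Fb-Skn. Ccne2, a cyclin of S phase entry, was among those higher in Fb-Epn than Fb-Skn (1.16 ± 0.10, adjusted p = 2.2e-07). Of 15 retinoblastoma and E2F genes, 8 were higher in Fb-Epn than Fb-Skn and 7 did not pass, the higher ones including E2f7 (1.90 ± 0.29, adjusted p = 6.5e-05). In Fb-Epn against Fb-Par 9 of them were higher and 2 lower, and in Fb-Par against Fb-Skn 1 was higher and 14 did not pass.

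Genes of S phase and mitosis, which lie downstream of the D cyclins, were higher in Fb-Epn in 23 of 24 cases against Fb-Skn and in 24 of 24 against Fb-Par, and in Fb-Par 17 of 24 were lower than Fb-Skn. Their median log2 fold changes were 1.07, 2.16 and -0.82 in these comparisons. The order Fb-Epn, Fb-Skn, Fb-Par was that of Cdkn1c and the reverse of that of Cdkn2b and Ccnd2. Top2a, a mitotic topoisomerase, was 36.7 ± 1.28 TPM in Fb-Epn and 4.56 ± 0.782 TPM in Fb-Par (3.02 ± 0.095, adjusted p = 1.9e-12). Mcm5, a subunit of the replicative helicase, was 24.6 ± 2.25 TPM in Fb-Epn and 5.77 ± 0.699 TPM in Fb-Skn (1.95 ± 0.16, adjusted p = 8.5e-08). Cenpf, a kinetochore gene, was lower in Fb-Par than Fb-Skn (-1.89 ± 0.10, adjusted p = 7.3e-10).

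Polycomb proteins are known to silence the locus of Cdkn2a and Cdkn2b. Of 23 Polycomb and demethylase genes, 9 were higher and 1 lower in Fb-Epn than Fb-Skn (median 0.19), 1 higher and 2 lower in Fb-Epn than Fb-Par (median -0.0042), and 9 higher and 2 lower in Fb-Par than Fb-Skn (median 0.19). Cbx7, a reader of the Polycomb mark, was higher in Fb-Epn (1.75 ± 0.18, adjusted p = 1.2e-06) and in Fb-Par (1.90 ± 0.18, adjusted p = 4.2e-07) than Fb-Skn. The factor Tbx2, known to repress Cdkn2a, was also higher in Fb-Epn (2.60 ± 0.31, adjusted p = 5.3e-06) and in Fb-Par (2.93 ± 0.30, adjusted p = 1.2e-06) than Fb-Skn. The Tbx2 values in Fb-Skn rested on at most 8 reads per library. In Fb-Par against Fb-Skn, Cdkn2b was higher (1.15) and Cdkn2a lower (-0.84). In Fb-Epn against Fb-Par, where Cdkn2a and Cdkn2b were both lower, neither Cbx7 (-0.15, adjusted p = 0.45) nor Tbx2 (-0.32, adjusted p = 0.28) passed. The part of these regulators in the Cdkn2a and Cdkn2b levels was not tested. Ezh2, the methyltransferase, was 20.5 ± 0.876 TPM in Fb-Epn and 12.9 ± 0.471 TPM in Fb-Par (0.69 ± 0.086, adjusted p = 1.1e-05).

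Protein levels of these genes depend largely on degradation, which RNA does not show. Of 19 genes for ubiquitin ligase parts and kinases that act on D cyclins and Cip/Kip proteins, 5 were higher and 3 lower in Fb-Epn than Fb-Skn, 5 higher and 3 lower in Fb-Epn than Fb-Par, and 2 higher and 4 lower in Fb-Par than Fb-Skn. Dtl, which directs p21 to its ligase in S phase, was higher in Fb-Epn than Fb-Par (3.17 ± 0.28, adjusted p = 2.6e-07) and Fb-Skn (2.38 ± 0.26, adjusted p = 2.6e-06). Fbxw7, which recognises cyclin E, was lower in Fb-Epn than Fb-Skn (-1.04 ± 0.13, adjusted p = 6.6e-06) and Fb-Par (-0.58 ± 0.13, adjusted p = 0.0018).

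**Figure D4:**
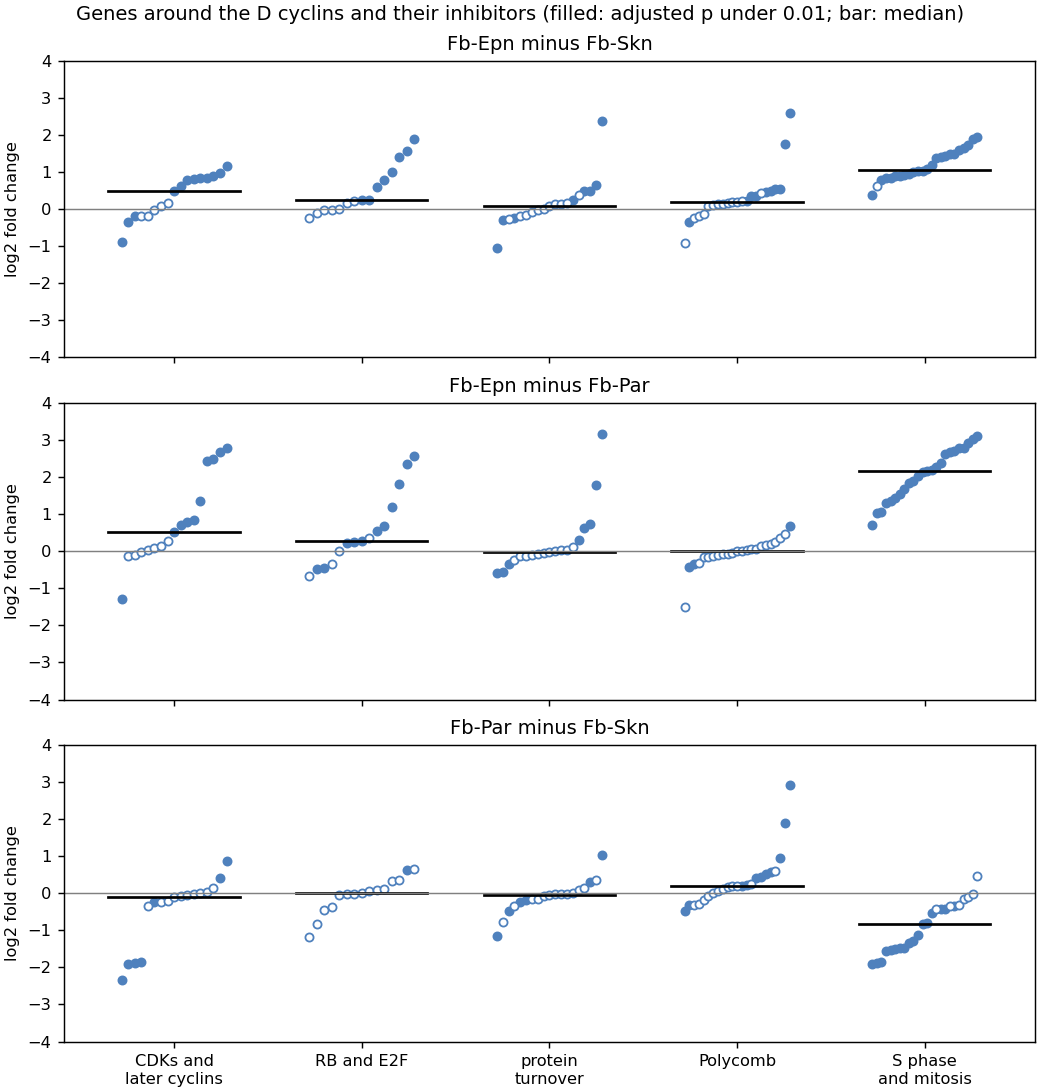
Log2 fold change (vertical axis) of each tested gene in 5 lists of genes that act with the D cyclins and their inhibitors, in the 3 comparisons, filled where the edgeR adjusted p was under 0.01, with the bar at the list's median. The median of S phase and mitosis genes lay at 1.07, 2.16 and -0.82.

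Regulators upstream of these genes moved in both directions. Of 25 transcription factors known to act on their promoters, 13 were higher and 8 lower in Fb-Epn than Fb-Skn, 12 higher and 9 lower in Fb-Epn than Fb-Par, and 13 higher and 6 lower in Fb-Par than Fb-Skn. Myc, known to induce Ccnd2 and to repress Cdkn1a and Cdkn2b, was 91.1 ± 4.82 TPM in Fb-Epn and 26.8 ± 0.330 TPM in Fb-Skn (1.62 ± 0.061, adjusted p = 1.4e-11). In Fb-Par it was 34.6 ± 2.22 TPM, lower than in Fb-Epn, and the difference from Fb-Skn did not pass. Cdkn1a, Cdkn2b and also Ccnd2 were lower in Fb-Epn than in both other types, and Ccnd2 was highest in Fb-Par. The part of Myc in these levels was not tested. Foxo1, known to act on Cdkn1b, was higher in Fb-Par than Fb-Skn (1.43 ± 0.069, adjusted p = 2.2e-10). In Fb-Epn, where Cdkn1b was highest, Foxo1 was lower than in Fb-Par (-1.72 ± 0.070, adjusted p = 3.5e-11) and Fb-Skn (-0.29 ± 0.075, adjusted p = 0.0045). Of 17 ERK response genes, the pathway that induces Ccnd1, 10 were higher and 2 lower in Fb-Epn than Fb-Skn, 11 higher and 3 lower in Fb-Epn than Fb-Par, and 5 higher and 6 lower in Fb-Par than Fb-Skn. Dusp6, an ERK phosphatase, was higher in Fb-Epn (1.87 ± 0.073, adjusted p = 2e-11) and Fb-Par (1.53 ± 0.074, adjusted p = 2.1e-10) than Fb-Skn, where Ccnd1 was highest. Etv4, an ERK-induced transcription factor, was highest in Fb-Skn as Ccnd1 was, and was lower in Fb-Epn (-1.75 ± 0.16, adjusted p = 2.9e-07) and Fb-Par (-0.89 ± 0.15, adjusted p = 0.00014). Epha4 was lower in Fb-Epn (-1.10 ± 0.18, adjusted p = 0.00011) and in Fb-Par (-1.32 ± 0.18, adjusted p = 2.3e-05) too. Between the nerve types Etv4 was lower in Fb-Epn than Fb-Par (-0.86 ± 0.16, adjusted p = 0.00049), unlike Ccnd1, and Epha4 did not pass (adjusted p = 0.37). Of 17 TGF-beta and BMP response genes, 5 were higher and 4 lower in Fb-Epn than Fb-Skn, 5 higher and 5 lower in Fb-Epn than Fb-Par, and 7 higher and 5 lower in Fb-Par than Fb-Skn.

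The genes whose pattern was most like that of each of the 9 were ranked by Pearson's r of TMM-scaled log2 counts over the 9 libraries, which fall into 3 types, so that r mainly followed the type means. Cdkn1a was most like Cpq (r = 0.999), Myh11 (0.999) and Ccng1 (0.998). Cdkn1b was most like Pmp2 (0.991), Pde7a (0.989) and Pcna (0.988), and Cdkn1c most like Arrdc4 (0.992), Slc2a1 (0.990) and Kdm3a (0.989). Cdkn2a was most like Grhl3 (0.991), Casp12 (0.990) and Aff3 (0.988), Cdkn2b most like Pdgfrb (0.997), Dmpk (0.996) and Filip1l (0.995), and Cdkn2c most like RGD1306227 (0.972), Tor3a (0.964) and Polr1b (0.962). Ccnd1 was most like Fdft1 (0.996), Ssr1 (0.995) and Ssr2 (0.995), Ccnd2 most like Rnf10 (0.997), Ntn4 (0.996) and Adamts12 (0.993), and Ccnd3 most like Eif2ak4 (0.994), Ufl1 (0.994) and Aqp1 (0.994). With Spearman's rho in place of r, 0 of these 27 genes stayed among the leading 3.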

How the data were processed

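Directional libraries of poly(A) RNA were sequenced by the authors from both ends, and reads were aligned to rn6. The submitters' processing notes name FastQC 0.11.7, Trimmomatic 0.38, HISAT2 2.1.0 and featureCounts 1.6.3. The annotation release, the strand setting and the treatment of reads that match several places are not given in the sources used here. The authors deposited raw counts per gene, a TPM table whose values are the counts divided by 1 length per gene and rescaled, and an FPKM table that is no rescaling of the counts.

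Types and replicate numbers were taken from the sample titles. Counts of all 9 libraries were fitted in 1 model with edgeR 4.0.16 in R 4.3.3 (TMM scaling, default filter, quasi-likelihood F test), and p-values were adjusted over the 13273 tested genes by the Benjamini-Hochberg method. Shares were computed from TPM and compared by exact permutation. The script was tested on simulated counts. Alternatives were DESeq2 1.42.0, limma 3.58.1 on log2(TPM + 1), log2(TPM + 0.1) and log2(FPKM + 1), other scalings and filters, a test against a fold of 4, a replicate block and leaving out each library. Libraries of a type differed by more than sampling noise (chi-square per degree of freedom 3.13 to 5.18).

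The 9 genes and all lists were chosen with earlier results of these data known. Named besides them are 5 direct partners and the 3 genes most like each. Up to 2 higher and 2 lower called genes per list and comparison by fold change are named too, but not all that qualified are given. Foxo3 and Foxo4 are named as relatives of Foxo1. A few genes, 1 gene list and 1 motif search are not reported here. Lists of 7 cell types were used as markers. Promoters of Cdkn1a, Cdkn1b, Cdkn2a, Cdkn2b, Cdkn2c and Ccnd3 were matched by symbol in RefSeq (GRCr8), 6 of the 9 genes, and those of Cdkn1c, Ccnd1 and Ccnd2 were not analysed here.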

Additional observations from a re-analysis of the deposited data

How the results depend on the processing

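Of the 27 comparisons of a gene between types, 22 kept their call and direction under every scaling, filter, tool and left-out library tried, other than the test against a fold of 4. The other 5 were all in Fb-Par against Fb-Skn. Without TMM scaling the log2 fold change was 0.17 for Cdkn1a, now called, -0.75 for Cdkn2a, no longer called, and turned to 0.069 for Cdkn1b and 0.048 for Ccnd3. With limma on log2(TPM + 1) these were 0.23, -0.65, 0.12 and 0.10, and with log2(TPM + 0.1) 0.23, -0.67, 0.12 and 0.10. With limma on log2(FPKM + 1) they were 0.17 for Cdkn1a, now called, 0.072 for Cdkn1b and 0.052 for Ccnd3. TPM scaling shifts the median of all genes by 0.13 in Fb-Epn minus Fb-Skn and 0.12 in Fb-Par minus Fb-Skn, and the share of higher genes among those called was 69.0% and 66.9% with limma on log2(TPM + 1), 63.7% and 61.9% without TMM scaling, and 52.3% and 50.8% with it.

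Leaving out 1 library at a time, the log2 fold change in Fb-Par minus Fb-Skn ranged from -0.98 to -0.63 for Cdkn2a, from -0.083 to 0.017 for Cdkn1b and from -0.42 to 0.077 for Cdkn2c. At least 10 counts in every library left Cdkn2a untested, so that setting gave it no value.

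Tested against a fold of 4, 1 gene passed in Fb-Epn minus Fb-Skn (Cdkn2a), 2 in Fb-Epn minus Fb-Par (Cdkn1c and Cdkn2b) and 0 in Fb-Par minus Fb-Skn, where edgeR gave 0 at an unadjusted p under 0.05 too. The fold changes are unchanged by this test. Not passing it were, in Fb-Epn minus Fb-Skn, Cdkn1a (-1.23), Cdkn1b (0.43), Cdkn1c (1.15), Cdkn2b (-2.29), Cdkn2c (1.13), Ccnd1 (-0.59), Ccnd2 (-0.49) and Ccnd3 (-0.38). In Fb-Epn minus Fb-Par they were Cdkn1a (-1.30), Cdkn1b (0.46), Cdkn2a (-2.75), Cdkn2c (1.33), Ccnd1 (0.74), Ccnd2 (-1.42) and Ccnd3 (-0.33), and in Fb-Par minus Fb-Skn Cdkn1c (-1.46), Cdkn2a (-0.84), Cdkn2b (1.15), Ccnd1 (-1.33) and Ccnd2 (0.93). Of the genes in the 10 pathway lists 11, 16 and 9 passed it, against 131, 130 and 113 called otherwise. From counts in place of TPM the log2 ratio of D cyclins to inhibitors turned to -0.20 in Fb-Par minus Fb-Skn. From FPKM in place of TPM, a scale added after the data were seen, the mean log2 ratio of Cdkn2b to Cdkn2a in Fb-Epn turned from 0.71 to -0.025. With Spearman's rho, 0 of the 27 most similar genes were shared. The cause of these changes was not tested.

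Equal replicate numbers did not pair the libraries (correlation of deviations -0.080 to 0.020 for equal and -0.045 to 0.089 for other numbers), and no pairing is stated in the labels. With the replicate number as a block, 9, 9 and 5 of the 9 genes were called and no call changed. Depth limits Cdkn2a in Fb-Epn, with 9 to 20 reads, and Cdkn2c in Fb-Par and Fb-Skn, with 20 to 48.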

Other observations

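Genes of the imprinted domain of Cdkn1c and other imprinted genes that are often expressed together did not share 1 direction. Of 20 tested, 5 were higher and 6 lower in Fb-Epn than Fb-Skn, 5 higher and 9 lower in Fb-Epn than Fb-Par, and 9 higher and 3 lower in Fb-Par than Fb-Skn. Dio3 (3.64 ± 0.11, edgeR adjusted p = 9.6e-13) and Dlk1 (2.23 ± 0.38, edgeR adjusted p = 0.00022) were higher in Fb-Epn than Fb-Par, as Cdkn1c was. Both were also higher in Fb-Par than Fb-Skn, unlike Cdkn1c, with at most 1 and 4 reads per Fb-Skn library. Igf2, the growth factor gene of the neighbouring domain, was 0.425 ± 0.0628 TPM in Fb-Epn and 14.2 ± 1.34 TPM in Fb-Par (log2 fold change -5.03 ± 0.20, edgeR adjusted p = 2.1e-11), the reverse of Cdkn1c in that comparison. Against Fb-Skn, at 0.139 ± 0.0883 TPM, Igf2 was higher in Fb-Epn (1.42 ± 0.38, edgeR adjusted p = 0.0057), as Cdkn1c was. That call rested on at most 15 reads per library in Fb-Epn and 6 in Fb-Skn. Slc22a18, the nearest gene to Cdkn1c in the deposited coordinates, was 14.7 ± 0.463 TPM in Fb-Epn and 18.1 ± 1.96 TPM in Fb-Skn (-0.44 ± 0.11, edgeR adjusted p = 0.0039). In Fb-Par it was 34.0 ± 1.57 TPM, so that Fb-Epn was lower than Fb-Par (-1.20 ± 0.11, edgeR adjusted p = 2.9e-07). Fb-Par was higher than Fb-Skn (0.76 ± 0.11, edgeR adjusted p = 2.5e-05). Cdkn1c went the other way in all 3 comparisons.

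Of 21 tested genes often followed in senescent fibroblasts besides the inhibitors, 12 were higher and 7 lower in Fb-Epn than Fb-Skn, 12 higher and 5 lower in Fb-Epn than Fb-Par, and 10 higher and 8 lower in Fb-Par than Fb-Skn. The list was not split by the direction its genes take in senescence, so these counts do not show more or less of it. Ccl2, a monocyte attractant, was 737.2 ± 38.0 TPM in Fb-Epn and 52.6 ± 4.01 TPM in Fb-Par (3.82 ± 0.058, edgeR adjusted p = 6.6e-16). Igfbp5 was 65.4 ± 2.72 TPM in Fb-Epn, 182.7 ± 3.18 TPM in Fb-Par and 4.91 ± 0.213 TPM in Fb-Skn. The macrophage marker sum was highest in Fb-Epn as well, and its part in the Ccl2 value was not tested.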
